A study of Mus musculus with 8 samples.

Results

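The integrin and laminin subunit genes were examined as one module of cell adhesion across 4 mouse cell types. The members were genes of the expression table whose symbol names an integrin α subunit (Itga), an integrin β subunit (Itgb), or a laminin α, β, or γ chain (Lama, Lamb, Lamc). The 36 genes described, of the 24354 listed, comprise 26 integrin subunit genes and 10 laminin chain genes. The rule reads gene symbols alone, but the module was picked with earlier results of these data known.

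RNA was sequenced from 8 libraries, with 2 libraries in each of 4 groups. Embryonic stem cells (ESCs) were of the E14 line, a mouse ESC line labelled wild type, and were grown with fetal bovine serum and LIF. Neural stem cells (NSCs) were OG2/ROSA26 cells, which carry GFP under Oct4 regulatory sequence and a ubiquitous lacZ reporter, and were grown with EGF and FGF2. Extended pluripotent stem cells (EPSCs), also labelled wild type, came from the C57BL/6 strain (line 1, passage 15) and were kept in N2B27 medium with CHIR99021, minocycline hydrochloride, dimethindene maleate, and human LIF. EPSC-NSC hybrid cells (line 2-2, passage 10) were made by polyethylene glycol fusion of EPSCs with NSCs, were near-tetraploid, and were kept in the EPSC medium. ESCs, EPSCs, and hybrid cells grew on inactivated C3H mouse embryonic fibroblasts, whereas NSCs grew on gelatin without feeder cells. Each group was 1 line, so that the spread between its libraries, and every p-value, describes repeated libraries of that line. Culture medium, feeder cells, and genetic background cannot be told apart from cell type in the comparisons with NSCs, nor can medium and genetic background in those with ESCs.

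Integrins are receptors on the cell surface made of 1 α and 1 β subunit, and the pairing sets which matrix protein or cell surface protein is bound. The β1 subunit pairs with many α subunits, and α3β1, α6β1, α7β1, and α6β4 are the main laminin receptors. The α5β1 receptor binds fibronectin, αv receptors bind ligands with an RGD peptide, and α9β1 and α4β1 bind ligands that include tenascin C, osteopontin, and VCAM-1. Laminins are trimers of an α, a β, and a γ chain, which form the sheet of the basement membrane. The chains α1, α5, β1, and γ1 build the laminins of the early embryo, whereas α3 and β3 are chains of a laminin that anchors epithelia.

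Promoter sequences of 3 subunit genes are shown first, since these genes differed in opposite directions between NSCs and the pluripotent cells. Itgav and Itgb8 encode the subunits of the αvβ8 receptor and were high in NSCs, while Itgb7 was near 0 there. Each sequence is the 250 bases before a transcript start in RefSeq (GRCm38.p6), which for Itgav and Itgb7 lies inside the outer bounds of the gene, read 5′ to 3′ on the strand of the gene, with CG dinucleotides in capitals.
Itgav, chr2:83724147-83724396, plus strand: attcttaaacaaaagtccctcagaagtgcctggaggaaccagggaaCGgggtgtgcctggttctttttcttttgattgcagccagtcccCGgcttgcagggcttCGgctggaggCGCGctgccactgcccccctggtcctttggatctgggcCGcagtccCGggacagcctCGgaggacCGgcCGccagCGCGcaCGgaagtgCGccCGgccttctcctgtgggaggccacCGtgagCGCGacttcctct
Itgb8, chr12:119238277-119238526, minus strand: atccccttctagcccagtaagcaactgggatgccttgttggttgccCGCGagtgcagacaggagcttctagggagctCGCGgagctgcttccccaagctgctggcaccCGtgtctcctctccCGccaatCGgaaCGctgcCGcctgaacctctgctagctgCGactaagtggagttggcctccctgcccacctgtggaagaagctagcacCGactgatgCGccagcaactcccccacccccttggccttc
Itgb7, chr15:102231936-102232185, minus strand: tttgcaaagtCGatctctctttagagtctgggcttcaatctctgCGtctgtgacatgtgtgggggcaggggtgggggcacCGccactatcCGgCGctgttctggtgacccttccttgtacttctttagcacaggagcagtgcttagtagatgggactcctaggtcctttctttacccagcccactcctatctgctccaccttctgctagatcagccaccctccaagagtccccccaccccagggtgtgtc
The windows held 18 CG dinucleotides in Itgav, 12 in Itgb8, and 5 in Itgb7, against a median of 6 over 32851 windows of the same length. As many CG dinucleotides as in Itgav were held by 21.7% of all windows, as many as in Itgb8 by 33.5%, and as many as in Itgb7 by 55.6%. None of these 3 windows held any of 6 short motifs searched on both strands, none of which contains another. The motifs were the GC box GGGCGG (in 32.7% of all windows), the AP-1 site TGANTCA (6.75%), the CRE TGACGTCA (1.55%), the octamer ATGCAAAT (1.6%), the E-box CACGTG (6.02%), and TATAAA (12.4%). Of the 36 members, 23 had a window in the RefSeq table, and the GC box was the motif most often found among them, with 4 matches before Lama5 and 3 each before Itgb5 and in 1 of the windows of Itga3. A match or its absence describes these letters in this window only.

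Levels are given in FPKM as the authors computed them, which by definition scale fragments by transcript length in kilobases and by each 1000000 fragments mapped (any further scaling of libraries by Cuffnorm is not given in the sources used here), so that genes of different length can be set side by side. The derived depth per library, in units of 1000000 fragments, was 22.0 to 32.6, at which 3 fragments on a transcript of 2 kb correspond to 0.046 to 0.0682 FPKM, a limit that covers counting error only. On a longer transcript the same number of fragments corresponds to a lower FPKM, and the lengths of the members were not used for this limit. Fold changes are differences of log2(FPKM + 1), which understate the change of genes near 0. Pluripotent cell markers summed to 4526 to 5409 FPKM in the ESC, EPSC, and hybrid cell libraries and 117 to 120.2 FPKM in NSCs, and neural stem cell markers to 10.6 to 19.3 FPKM and 3676 to 3721 FPKM, so these sums followed the labels. The NSC sum of the former was nearly all Sox2, which neural stem cells also express (116 and 120 FPKM, against 155 to 204 in the other libraries) and which was not called between NSCs and any other group. Oct4 itself (Pou5f1) was listed at 0 in both NSC libraries.

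A mean of at least 1 FPKM in at least 1 group, which limma required, was reached by 22 members (61.1%, against 54.4% of all genes), namely 15 integrin and 7 laminin genes. The other 14 were not tested. Their highest group mean was 0.926 FPKM, for Itga2b in NSCs, the α subunit of the platelet fibrinogen receptor. The highest library values of the others were 1.02 FPKM for Lamb3, 0.946 for Itga11, 0.728 for Itga8, 0.662 for Itga10, 0.548 for Itgae, 0.54 for Lama2, 0.262 for Itgb2, 0.21 for Itgam, 0.175 for Itga2, 0.0217 for both Itgax and Lamc3, and 0.00904 for Itgb6. Itgad was listed at 0 in all 8 libraries. The tested members are called higher or lower below where limma gave an adjusted p under 0.05 and a change over 2-fold.

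**Figure D1:**
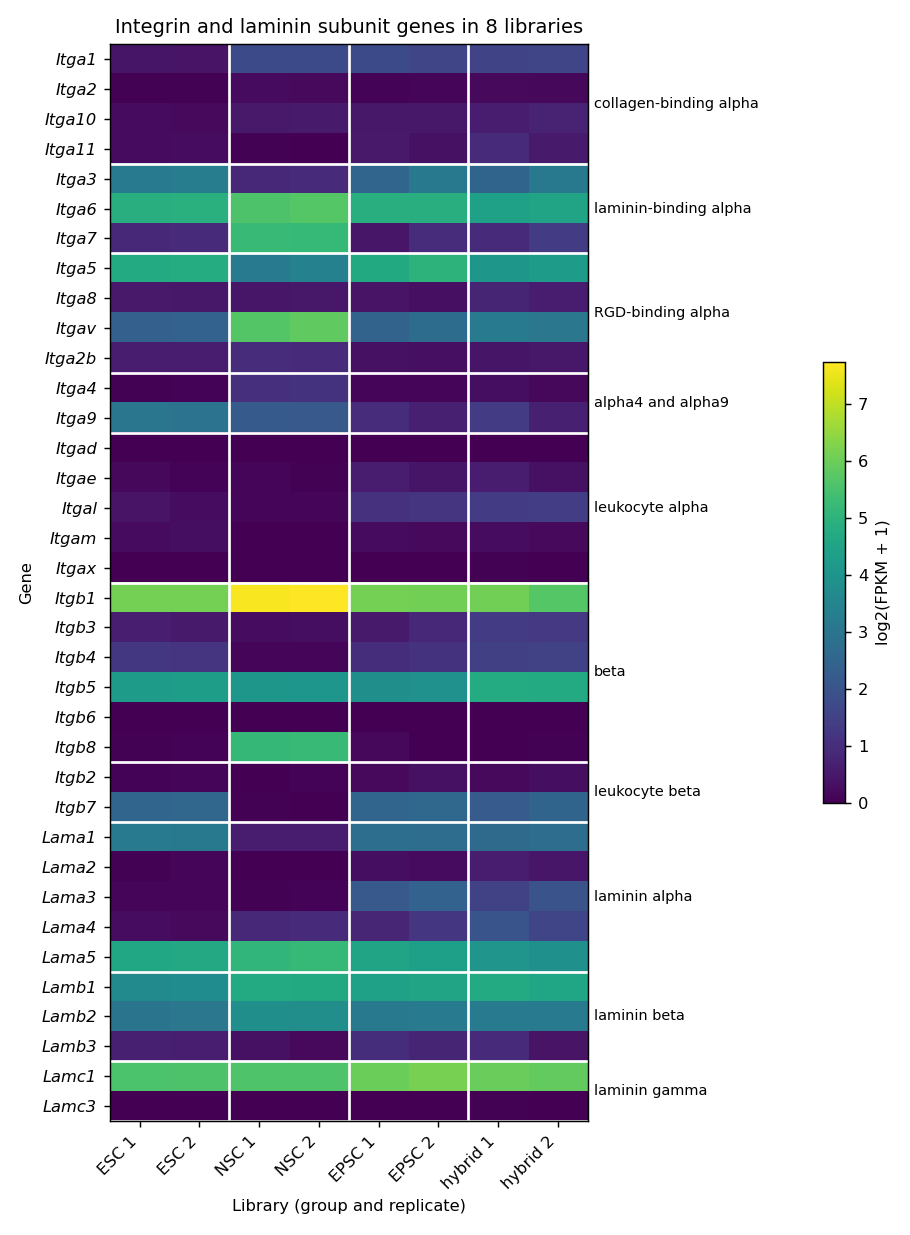
Expression of the 36 integrin and laminin subunit genes (rows, ordered by role) in 8 libraries (columns, 2 per group), as log2(FPKM + 1) on a colour scale from dark (0) to yellow. The brightest fields are those of Itgb1 in the NSC libraries (199.8 and 212.4 FPKM), and Itga7, Itgav, and Itgb8 are brightest in NSCs.

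Between NSCs and the pluripotent cells, some subunits were higher and others lower, with Itgav, Itga7, and Itgb8 on the NSC side and Itga3, Itgb7, and Lama1 on the pluripotent side. In hybrid cells against NSCs, limma called 14 of 22 members (63.6%, against 47.2% of all 13239 genes tested), 7 higher (23.3% of all genes) and 7 lower (23.9%). In EPSCs against NSCs, it called 11 of 22 (50%, against 46.9%), 6 higher (23.0%) and 5 lower (23.9%). Both comparisons share the NSC libraries, and are therefore given side by side. A 3-fold rule on group means, modelled on the study's own and read here as means more than 3-fold apart with the higher one over 3 FPKM, called 8 members in hybrid cells against NSCs (29.0% of all genes tested) and 10 in EPSCs against NSCs (28.8%). The median log2 fold change of the tested members was 0.13 in hybrid cells and -0.13 in EPSCs against NSCs, where all genes tested had 0.06 and 0.08. FPKM summed to less in the NSC libraries than in the others (415240 against at least 600674). Scaling every library to a sum of 1000000 moved the median of all genes to -0.50 and -0.48 and that of the members to -0.20 and -0.46, and then 7 of 17 members called in hybrid cells and 6 of 16 called in EPSCs against NSCs were higher.

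Among the laminin-binding α subunits, Itga6 was the most abundant in every group, while Itga7 and Itga3 took opposite directions between NSCs and the pluripotent cells. Itga7, whose product pairs with β1 and is best known from muscle, (chr10:128933421-128958286) was 36.5 and 35.0 FPKM in NSCs, 0.870 and 0.915 in ESCs, 0.378 and 0.989 in EPSCs, and 0.891 and 1.52 in hybrid cells. It was the α subunit with the steepest fall from NSCs, with a log2 fold change of -4.07 ± 0.19 (SE) in hybrid cells (adjusted p = 4.4e-07) and -4.47 ± 0.19 in EPSCs (2.7e-07). Among ESCs, EPSCs, and hybrid cells its levels overlapped. Itga3 was low in NSCs and higher elsewhere, with 8.14 and 8.41 FPKM in ESCs, 4.79 and 7.74 in EPSCs, 4.62 and 7.66 in hybrid cells, and 0.828 and 0.913 in NSCs. Its mean in hybrid cells was 7.05 times that in NSCs (log2 fold change 1.90 ± 0.24, adjusted p = 0.000131), and the EPSC and hybrid libraries covered almost the same range. Itga6, which pairs with β1 or β4, was shared by all cell types, with 46.4 and 51.3 FPKM in NSCs, 28.2 and 29.1 in ESCs, 27.9 and 28.1 in EPSCs, and 20.5 and 22.1 in hybrid cells. It was lower in hybrid cells than in NSCs (log2 fold change -1.16 ± 0.07, adjusted p = 1.4e-06), and in EPSCs the difference of -0.78 from NSCs stayed under 2-fold (1.4e-05), except after scaling to equal sums or quantile normalization, where it was called.

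The RGD-binding subunits differed in both directions as well. Itgav, the αv subunit, was 49.9 and 56.7 FPKM in NSCs, 4.15 and 4.42 in ESCs, 4.49 and 5.59 in EPSCs, and 7.84 and 7.34 in hybrid cells. Its NSC mean was 7.03 times that of hybrid cells (log2 fold change -2.66 ± 0.11, adjusted p = 2.2e-07) and 10.6 times that of EPSCs (-3.17 ± 0.11, 8.8e-08). Itga5, the fibronectin receptor subunit, was high where Itgav was low, with 25.8 and 26.6 FPKM in ESCs, 25.1 and 31.0 in EPSCs, 16.0 and 18.3 in hybrid cells, and 8.27 and 9.63 in NSCs. EPSCs were above NSCs (log2 fold change 1.54 ± 0.12, adjusted p = 6.7e-06), whereas hybrid cells lay between both parents, 0.87 above NSCs (0.000205) and 0.67 below EPSCs (0.00375), each under 2-fold. After scaling to equal sums the difference of EPSCs from NSCs was 0.996 and no longer a call, and under quantile normalization that of hybrid cells from NSCs became one. As shares of all integrin α RNA, Itgav made up 34.0% in NSCs and 12.4% in hybrid cells, while Itga5 made up 5.70% and 28.0%.

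The β subunits showed the widest contrast of the module. Itgb8, whose only known partner is αv and which takes part in TGF-β activation, was 34.6 and 36.3 FPKM in NSCs, 0.0424 and 0.0578 in ESCs, 0.125 and 0.0150 in EPSCs, and 0.0144 and 0.0304 in hybrid cells. The 6 libraries outside NSCs held at most 0.125 FPKM, so no ratio is given, and the log2 fold change was -5.16 ± 0.08 in hybrid cells (adjusted p = 2.7e-09) and -5.09 ± 0.08 in EPSCs (2.7e-09). Itgb7, best known as a partner of α4 and αE on lymphocytes, had the reverse pattern, with 0.0283 and 0.0140 FPKM in NSCs, 4.81 and 4.91 in ESCs, 4.72 and 4.94 in EPSCs, and 3.65 and 4.66 in hybrid cells. It was higher than in NSCs by 2.33 ± 0.10 in hybrid cells (adjusted p = 3.4e-07) and by 2.51 ± 0.10 in EPSCs (2.2e-07). Both partners of β7 were low in the same cells, with at most 0.219 FPKM for Itga4 and 0.548 for Itgae. Itgb1 was the most abundant integrin subunit in every group, with 199.8 and 212.4 FPKM in NSCs, 68.5 and 68.4 in ESCs, 68.8 and 66.6 in EPSCs, and 67.1 and 51.3 in hybrid cells. It was lower in hybrid cells (log2 fold change -1.79 ± 0.11, adjusted p = 2.1e-06) and in EPSCs (-1.59 ± 0.11, 4.2e-06) than in NSCs. Itgb4, the partner of α6 in hemidesmosomes, was 0.0785 and 0.0706 FPKM in NSCs, 1.36 and 1.27 in ESCs, 1.00 and 1.20 in EPSCs, and 1.77 and 1.90 in hybrid cells, which was higher than NSCs in hybrid cells (1.40 ± 0.08, adjusted p = 9.7e-07) and just short of a call in EPSCs (0.97, 8.0e-06). That value depends on the constant of 1 added to low levels, and limma called it with 0.1 or 0.5 added and after scaling to equal sums. Itgb4 lies opposite Galk1 on the other strand, and Galk1 had 42.6 to 104 FPKM in the group means. Whether strand was used in counting is not given in the sources used here.

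**Figure D2:**
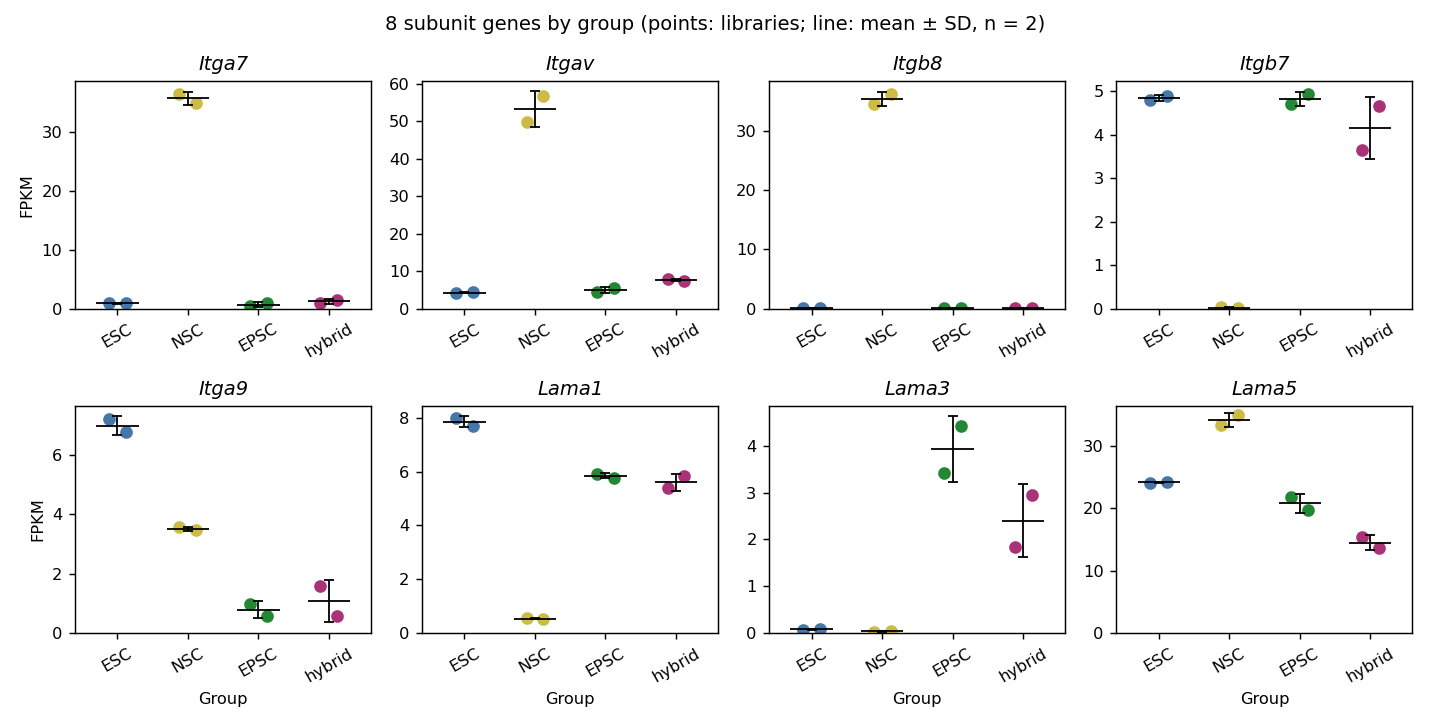
FPKM of 8 subunit genes by group, each on its own linear axis from 0. Points are libraries, and the line with bars is the mean ± SD (n = 2). Itga7, Itgav, and Itgb8 are high in NSCs, Itgb7 and Lama1 are high in the 3 pluripotent groups, Itga9 is highest in ESCs (7.22 and 6.77), Lama3 is high in EPSCs and hybrid cells, and Lama5 is highest in NSCs.

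Of the subunits that bind tenascin C and VCAM-1, Itga9 separated ESCs from EPSCs. Itga9 (chr9:118606709-118901003) was 7.22 and 6.77 FPKM in ESCs, 3.56 and 3.46 in NSCs, 0.993 and 0.593 in EPSCs, and 1.58 and 0.593 in hybrid cells. The ESC mean was 8.82 times the EPSC mean (log2 fold change -2.17 ± 0.21 in EPSCs, adjusted p = 0.000143), and NSCs were also above EPSCs (-1.34 ± 0.21, 0.000558) and hybrid cells (-1.15 ± 0.21, 0.0013). The EPSC and hybrid libraries overlapped. Without the second hybrid cell library, the difference of hybrid cells from NSCs was -0.81, under 2-fold, and under quantile normalization it was -0.90. Itga4 was 1.10 and 1.19 FPKM in NSCs and at most 0.219 FPKM in the other libraries, a difference from NSCs of -0.98 in EPSCs (adjusted p = 3.1e-06) and -0.87 in hybrid cells (6.2e-06), neither of which was a call on the log2(FPKM + 1) scale. The EPSC levels (0.0887 and 0.0810 FPKM) were low, just above the limit stated for a transcript of 2 kb, so no ratio is given, and both differences were called with 0.1 or 0.5 added to FPKM and after scaling to equal sums.

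In EPSCs against ESCs, limma called 3 of 22 members (13.6%, against 9.90% of all genes tested), 2 higher (5.08%) and 1 lower (4.81%), and the 3-fold rule called 2 (4.72%), or 1 where the mean over both groups had to exceed 3 FPKM. The count was 5 when every library was scaled to a sum of 1000000 (4 of them higher) and with 0.1 or 0.5 added to FPKM, each time with Itgal and Lama4 called in addition. Besides Itga9, the called members were the laminin chain gene Lama3 and the collagen receptor subunit gene Itga1. Lama3, the α3 chain of epithelial laminin, was at 0.0731 and 0.0899 FPKM in ESCs and 0.0311 and 0.0443 in NSCs, against 3.43 and 4.42 in EPSCs and 1.84 and 2.95 in hybrid cells. The ESC levels were above and the NSC levels below the limit stated for a transcript of 2 kb. From ESCs to EPSCs its log2 fold change was 2.18 ± 0.16 (adjusted p = 4.0e-05). Lamb3, the β3 chain, did not reach 1 FPKM in any group mean, with 1.02 and 0.755 FPKM in EPSCs, 0.894 and 0.330 in hybrid cells, 0.591 and 0.572 in ESCs, and 0.276 and 0.136 in NSCs. The EPSC mean of 3.92 FPKM for Lama3 was thus above the 0.887 FPKM for Lamb3. Against NSCs, Lama3 was higher both in EPSCs (2.24, adjusted p = 4.5e-06) and in hybrid cells (1.69, 2.4e-05). The 7 markers of primitive endoderm, a cell type known for laminin production, summed to 6.02 to 8.71 FPKM in each library, but single markers differed. Gata4 was 1.66 FPKM in the ESC mean, 0.798 in EPSCs, 0.155 in hybrid cells, and 0 in NSCs, and Sox7 was 1.67, 2.76, 1.05, and 0.0227 FPKM in the same order. Pdgfra ran the other way, with 0.423 FPKM in ESCs and 3.02 in NSCs, and the NSC sum was almost only Pdgfra and Dab2. Limma called 0 of 4 tested markers between EPSCs and ESCs (9.90% of all genes). Of the 4, 3 had an unadjusted p under 0.05 in that comparison (65.3% of all genes). Between EPSCs and NSCs, limma called 1 of the 4 (Sox7, 1.86), against 46.9% of all genes. The part of such cells in these levels was not tested.

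Itga1, the α1 subunit of a collagen and laminin receptor, was 0.347 and 0.315 FPKM in ESCs, 2.35 and 2.06 in EPSCs, 2.00 and 2.04 in hybrid cells, and 2.33 and 2.35 in NSCs. It was higher in EPSCs than in ESCs (log2 fold change 1.27 ± 0.08, adjusted p = 1.7e-05), and did not pass the test between EPSCs, hybrid cells, and NSCs. Pelo lies within Itga1 on the same strand, and its group means ran from 13.3 FPKM (NSCs) and 18.8 (ESCs) to 30.9 (EPSCs) and 33.5 (hybrid cells), and how reads of the shared stretch were assigned is not given in the sources used here.

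Between hybrid cells and EPSCs, limma called 0 of 22 members, where it called 3.56% of all genes tested (2.21% higher and 1.35% lower), and the 3-fold rule called 0 (1.59%). Shares this low leave less than 1 call for a group of this size, so the count of 0 is near the background. By unadjusted p under 0.05, 10 members differed (52.6% of all genes), and the same number passed an adjusted p under 0.05 without a fold requirement (44.4%), 6 higher (22.5%) and 4 lower (21.9%) in hybrid cells. These shares of members are near those of all genes. All of these were under 2-fold on the log2(FPKM + 1) scale, with log2 fold changes between -0.67 and 0.85. Itgb5, an αv partner that binds vitronectin, was the largest, with 25.9 and 25.7 FPKM in hybrid cells, compared with 13.5 and 14.2 in EPSCs, 16.1 and 15.8 in NSCs, and 18.3 and 18.9 in ESCs (0.85 ± 0.06 against EPSCs, adjusted p = 0.000129). It made up 28.0% of integrin β RNA in hybrid cells and 15.7% in EPSCs. Lama4, the α4 chain found in vessel and mesenchymal basement membranes, was 3.03 and 2.09 FPKM in hybrid cells, compared with 0.763 and 1.35 in EPSCs, 0.840 and 0.952 in NSCs, and 0.185 and 0.144 in ESCs (0.80 ± 0.16, adjusted p = 0.00724). Itgb3, the other well-known αv partner, was 1.57 and 1.45 FPKM in hybrid cells, compared with 0.485 and 0.825 in EPSCs, 0.558 and 0.471 in ESCs, and 0.201 and 0.211 in NSCs (0.61 ± 0.10 against EPSCs, 0.00334, and 1.06 ± 0.10 against NSCs, 2.9e-05, the latter 0.936 and not called under quantile normalization). The linear ratios of hybrid cells to EPSCs were 2.43 for Lama4 and 2.30 for Itgb3, and both genes were called when 0.1 instead of 1 was added to FPKM. Without the second EPSC library, Lama4 was also called. The further members above EPSCs were Itgav (0.51), Itgb4 (0.43), and Itgal (0.24), and those below were Itga5 (-0.67), Lama3 (-0.55), Lama5 (-0.49), and Itga6 (-0.38).

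**Figure D3:**
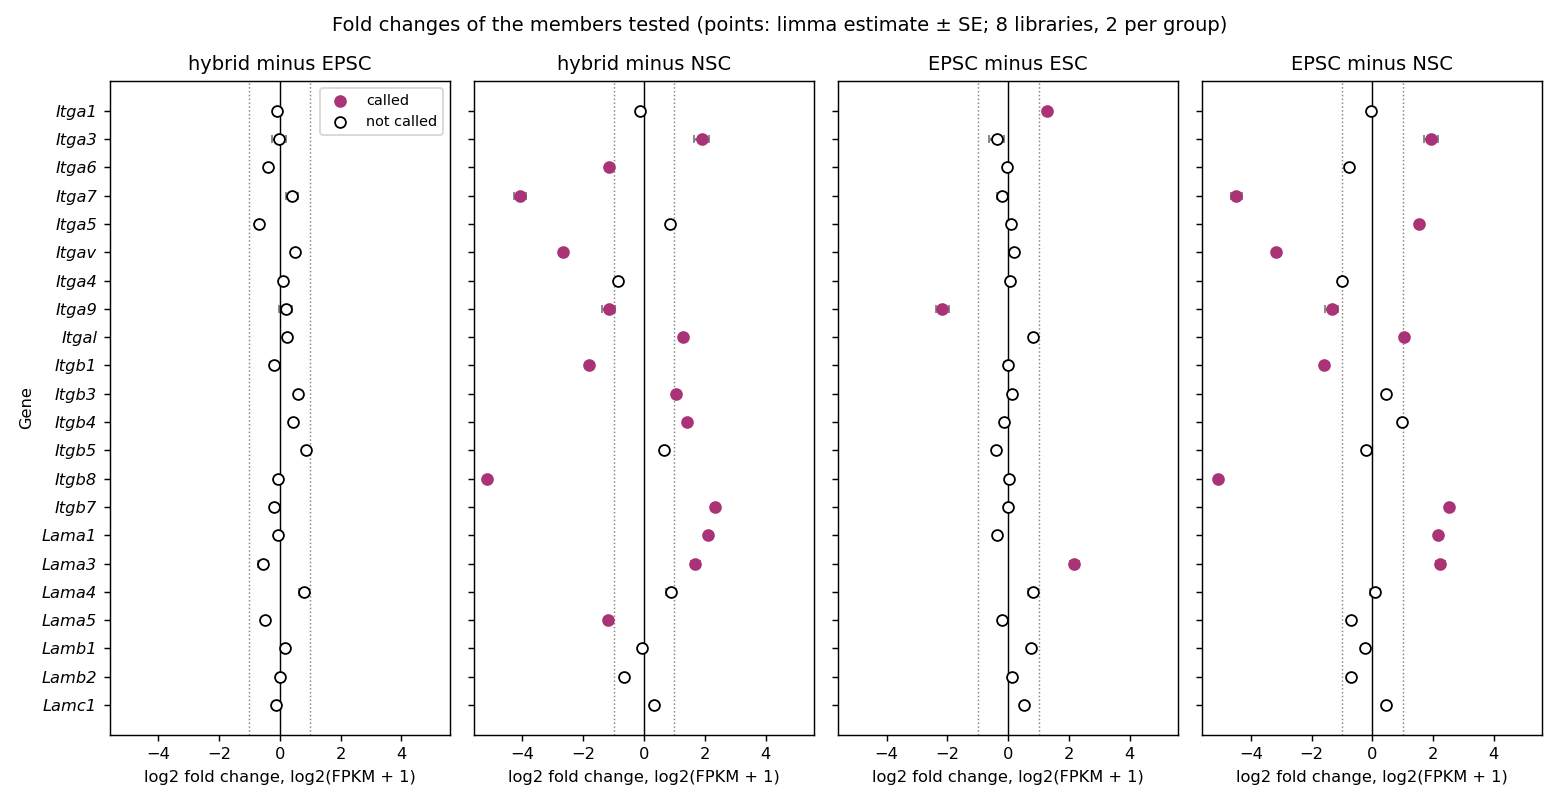
Differences of log2(FPKM + 1) for the 22 tested members in 4 comparisons, as limma estimates with standard errors (8 libraries, 2 per group). Filled points were called, open points were not, and dotted lines mark 2-fold. The points for hybrid cells minus EPSCs lie between -0.67 and 0.85, whereas those for hybrid cells minus NSCs reach from -5.16 (Itgb8) to 2.33 (Itgb7).

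The place of hybrid cells between their parents was described on a scale with NSCs at 0 and EPSCs at 1. For the 11 members called between the parents, the median was 0.927, and all 11 were nearer to EPSCs, from 0.563 for Itga5 to 1.23 for Itgal. Over the 6225 genes that differed more than 2-fold between the parents, the median was 0.967 and 96.0% were nearer to EPSCs, so the members lay close to the general pattern. Both hybrid libraries were above all 4 parental libraries for 5 tested members (Itgal, Itgb3, Itgb4, Itgb5, and Lama4), where 18.7% of all genes tested were. They were below all 4 for 3 members (Itga1, Itga6, and Lama5), against 16.2% of all genes. These shares of 22 members are near the background.

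Of the leukocyte integrin subunits, Itgal was the one α subunit tested. Itgal, which with β2 forms the receptor LFA-1, was 1.59 and 1.63 FPKM in hybrid cells, compared with 1.15 and 1.27 in EPSCs, 0.319 and 0.188 in ESCs, and 0.0698 and 0.0826 in NSCs. It was higher than in NSCs in hybrid cells (log2 fold change 1.28 ± 0.08, adjusted p = 1.5e-06) and in EPSCs (1.04 ± 0.08, 5.1e-06), and without the second EPSC library the latter difference was 0.998, just under 2-fold. Its partner Itgb2 was at most 0.262 FPKM. Of 6 leukocyte markers, Ptprc, which encodes the pan-leukocyte CD45, was at most 0.131 FPKM, Csf1r at most 0.176, Aif1 at most 0.132, and Cx3cr1 at most 0.0234. Spi1 was 2.00 and 2.11 FPKM in hybrid cells, compared with 1.49 and 1.74 in EPSCs, 0.721 and 0.407 in ESCs, and 0 in both NSC libraries. The summed markers, mostly Cd68, were 26.1 to 27.9 FPKM in ESCs, 2.00 to 2.57 in NSCs, 6.57 to 7.20 in EPSCs, and 15.7 to 16.3 in hybrid cells. The part of leukocytes in the level of Itgal was not tested beyond these values.

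The laminin α and β chains were then described by their sums within each chain family. Lama5, the α5 chain, made up most of the α chain RNA, with 33.4 and 35.0 FPKM in NSCs, 24.1 and 24.2 in ESCs, 21.9 and 19.7 in EPSCs, and 15.4 and 13.6 in hybrid cells. It was lower in hybrid cells than in NSCs (log2 fold change -1.19 ± 0.08, adjusted p = 2.8e-06), and after scaling to equal sums also called lower in EPSCs. Lama1, the α1 chain of the first embryonic laminin, was 8.01 and 7.70 FPKM in ESCs, 5.91 and 5.77 in EPSCs, 5.38 and 5.83 in hybrid cells, and 0.550 and 0.541 in NSCs. It was higher than in NSCs in hybrid cells (2.09 ± 0.08, adjusted p = 1.2e-07) and EPSCs (2.15 ± 0.08, 1.1e-07). The composition of the α chains differed between groups. Lama5 took 95.8% ± 0.10 (SD, n = 2) of α chain RNA in NSCs and 74.8% ± 0.51 in ESCs, and its share was 65.3% ± 3.7 in EPSCs and 56.8% ± 2.8 in hybrid cells. Lama1 took 1.53% in NSCs and 24.3% in ESCs, and 18.4% and 22.0% in EPSCs and hybrid cells. Lama3 took 12.4% ± 2.4 in EPSCs and 9.45% ± 3.4 in hybrid cells, but only 0.252% in ESCs and 0.105% in NSCs. Lama4 took 10.01% ± 2.3 in hybrid cells and 3.33% ± 1.4 in EPSCs. Shares within a family do not depend on the scaling of a library. No test was run on these shares, and with 2 libraries against 2 an exact permutation test cannot give a two-sided p below 0.333.

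Lamb1, Lamb2, and Lamc1 varied less between group means than the tested α chains. Lamb3, which was not tested, had a mean in EPSCs 4.31 times that in NSCs. The β chains summed to 20 FPKM in ESCs and 38.8 FPKM in NSCs. Lamb1 was 25.4 and 25.1 FPKM in NSCs, 25.6 and 22.7 in hybrid cells, 20.3 and 22.1 in EPSCs, and 11.9 and 12.6 in ESCs, and the difference of EPSCs from ESCs (log2 fold change 0.74, adjusted p = 0.000175) was under 2-fold. Lamb2 was 13.5 and 13.2 FPKM in NSCs and 6.95 to 8.20 FPKM in the other libraries. Lamc1, the γ1 chain present in most laminins, was the most abundant laminin chain, with 45.4 and 47.2 FPKM in ESCs, 47.9 and 47.3 in NSCs, 63.0 and 69.3 in EPSCs, and 61.9 and 58.4 in hybrid cells. Lamb1, Lamb2, and Lamc1 were not called in any of the 4 comparisons, but after scaling to equal sums Lamb2 was called lower in hybrid cells and in EPSCs than in NSCs. The α chains summed to 25.5 FPKM in hybrid cells and to between 31.8 (EPSCs) and 35.7 (NSCs) in the other groups. The ratio of summed α to summed β chains was 1.62 in ESCs, but 0.920 in NSCs, 1.06 in EPSCs, and lowest in hybrid cells at 0.779.

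**Figure D4:**
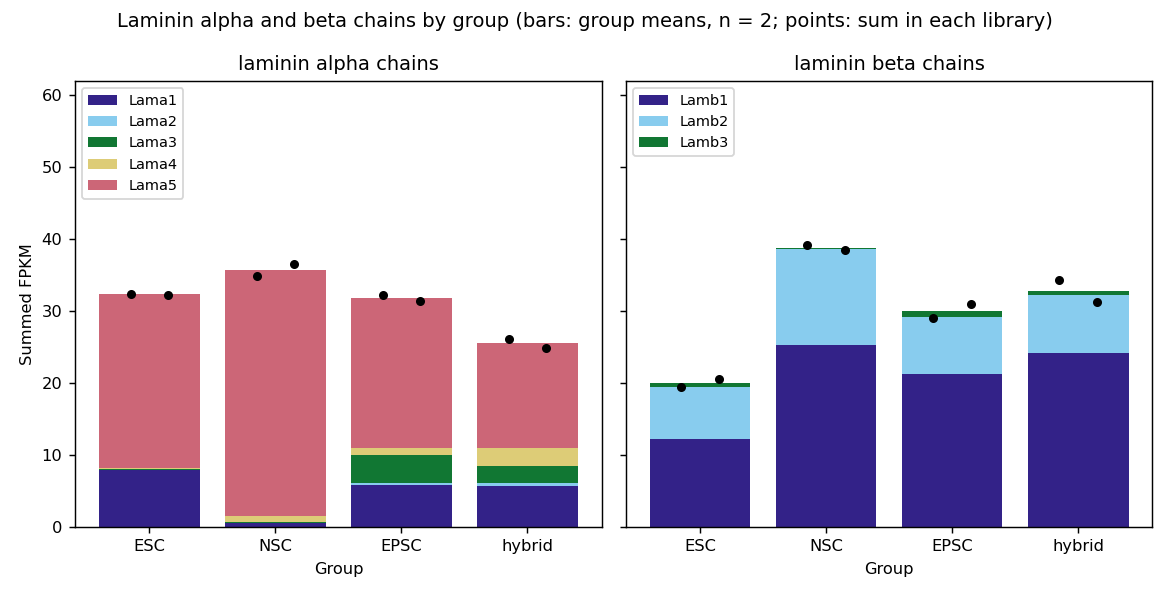
Summed FPKM of the laminin α and β chains by group, stacked by chain (bars, group means, n = 2), with the sum in each library as a point. The α chains of NSCs are almost all Lama5 (95.8%), Lama3 is visible in EPSCs and hybrid cells, and Lama4 takes its widest share in hybrid cells (10.01%).

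Fibroblast marker RNA moved with part of these results. The 12 fibroblast markers summed to 15.6 and 16.5 FPKM in ESCs, 12.6 and 13.6 in NSCs, 87.9 and 86.1 in EPSCs, and 333.3 and 250.4 in hybrid cells. Of 11 markers tested, 11 were higher in hybrid cells than in EPSCs (2.21% of all genes) and 8 were higher in EPSCs than in ESCs (5.08%). Col1a2, Lum, Fap, and Twist2 were listed at 0 in both NSC libraries, whereas Prrx1 (6.36 and 7.70 FPKM) and Col5a1 (4.39 and 4.14) made up most of the NSC sum, and Prrx1 was lower in EPSCs than in NSCs (-1.44). Lama4, Itgb3, Lama2, and Itga11 were each highest in the hybrid cell libraries. Lama2, the chain of muscle and mesenchymal laminin, was 0.540 and 0.373 FPKM in hybrid cells, then 0.218 and 0.173 in EPSCs, and elsewhere at most 0.0746. Itga11, a collagen receptor subunit of fibroblasts, was 0.946 and 0.482 FPKM in hybrid cells, then 0.447 and 0.275 in EPSCs, and elsewhere at most 0.185. In all, 10 members were higher in both hybrid cell libraries than in the other 6 (5 of the 22 tested, where 14.1% of all genes tested were). Among these 10, Itgax was too near 0 to be ranked, with 0.0115 FPKM in the second hybrid cell library and 0.0114 in the second EPSC library. Lama4, Itgb3, Lama2, Itga11, Itga8 (0.728 and 0.519 FPKM), and, by a small margin, Itgb5 were higher in the hybrid cell library with more fibroblast marker RNA. The order was reversed for Itga10 (0.523 and 0.662), Itgb4, and Itgal, and among the EPSC libraries Lama4 and Itgb3 were lower where the marker sum was slightly higher. The share of all genes in either order was not computed, and these members were picked as highest in hybrid cells. No trend is therefore read from the order. The part of feeder cells in the levels of these members, and of Itga1 and Lamb1 in EPSCs against ESCs, was not tested. NSCs, which grew without feeder cells, held Itga1 at 2.33 and 2.35 FPKM and Lama4 at 0.840 and 0.952. The marker sum of hybrid cells was 3.35 times that of EPSCs, and Lama3 was 1.84 and 2.95 FPKM in hybrid cells against 3.43 and 4.42 in EPSCs. The part of feeder cells in Lama3 was not tested either. In bulk RNA, fewer cells of a type and less RNA per cell cannot be told apart.

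**Figure D5:**
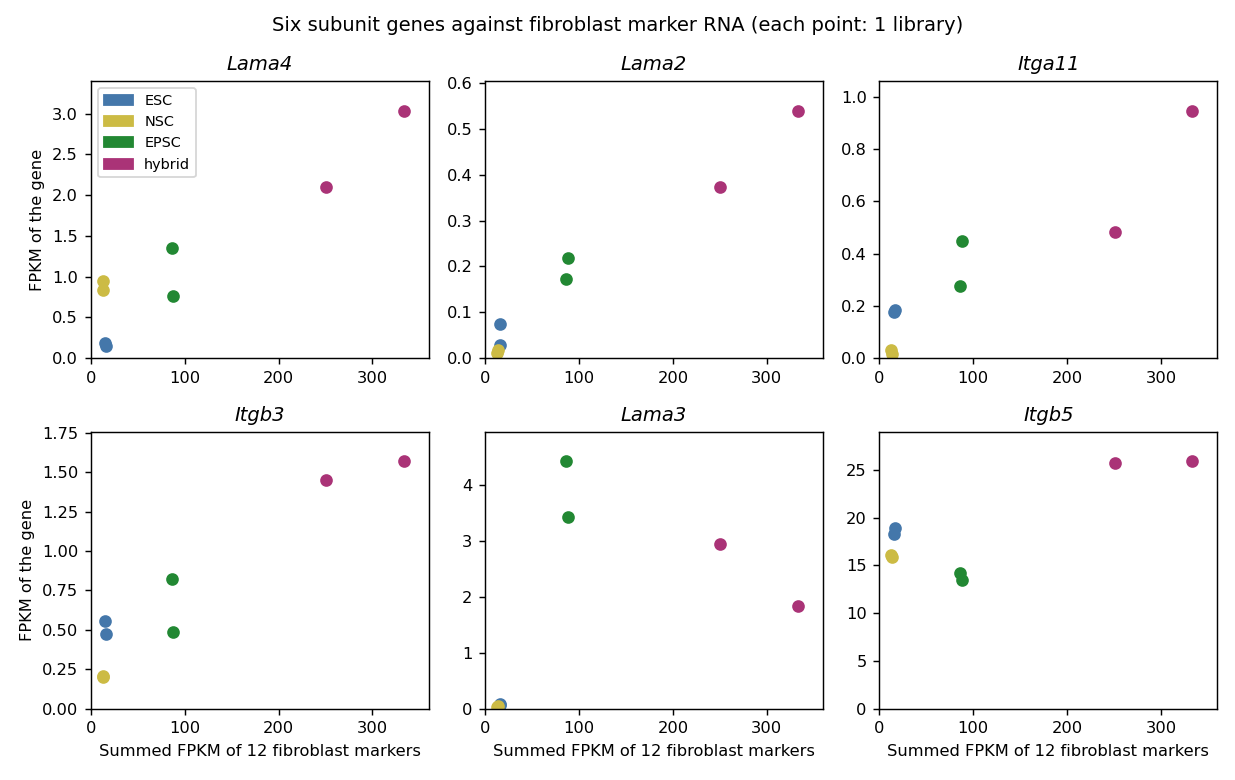
FPKM of 6 subunit genes (y axes, linear from 0) against the summed FPKM of 12 fibroblast markers (x axis), with 1 point per library coloured by group. Lama4, Lama2, Itga11, Itgb3, and Itgb5 are highest in hybrid cells, where the marker sum is 333.3 and 250.4, while Lama3 is highest in EPSCs.

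The ligands and partners of these receptors were counted from lists of related genes. Over all genes tested, limma called 47.2% in hybrid cells and 46.9% in EPSCs against NSCs, 9.90% in EPSCs against ESCs (5.08% higher and 4.81% lower), and 3.56% in hybrid cells against EPSCs, and an unadjusted p under 0.05 was reached by 52.6% between hybrid cells and EPSCs and 65.3% between EPSCs and ESCs. Of 10 basement membrane genes tested, 6 were higher and 2 lower in hybrid cells than in NSCs, 5 were higher and 2 lower in EPSCs than in NSCs, 1 was higher in EPSCs than in ESCs (Sparc, a collagen-binding matrix protein, 1.39), and limma called 0 between hybrid cells and EPSCs (8 had an unadjusted p under 0.05). The direction differed by gene. Nidogen-2 (Nid2), which links laminin to collagen IV, was 122 and 125 FPKM in ESCs, 70.3 and 73.5 in EPSCs, 66.6 and 72.8 in hybrid cells, and 5.29 and 5.16 in NSCs. The collagen IV chains Col4a5 and Col4a6 were the reverse, with 30.5 and 32.1 FPKM and 13.8 and 14.1 FPKM in NSCs and log2 fold changes of -4.09 and -3.82 in EPSCs against NSCs. Of 5 other laminin receptors, 2 were higher and 1 lower both in hybrid cells and in EPSCs than in NSCs, and limma called 0 between hybrid cells and EPSCs and between EPSCs and ESCs (3 and 2 had an unadjusted p under 0.05). Bcam, which binds the laminin α5 chain, was 64.5 and 70.0 FPKM in EPSCs and 1.83 and 1.97 in NSCs, while Dag1, the dystroglycan precursor, was 106 and 112 FPKM in NSCs and 34.0 and 44.2 in EPSCs. The other gene called higher was Rpsa, mainly a ribosomal protein.

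Of 11 other integrin ligands tested, 3 were higher in hybrid cells than in EPSCs (27.3%, against 2.21% of all genes called higher). This was the one list among these 4 with calls in that comparison. It was drawn up with earlier results of these data known. Tnc and Vcam1 were also among the EPSC genes that the study measured by qPCR, so these shares do not test the list. Vcam1, a ligand of α4 and α9 receptors, was 5.85 and 3.34 FPKM in hybrid cells, compared with 1.14 and 0.965 in EPSCs, 9.81 ± 0.28 (SD, n = 2) in NSCs, and 0.231 and 0.168 in ESCs (log2 fold change 1.41 against EPSCs, adjusted p = 0.00145). Tnc, tenascin C, was 75.2 and 55.0 FPKM in hybrid cells, compared with 23.3 and 25.1 in EPSCs, 261 and 268 in NSCs, and 2.81 and 2.95 in ESCs (1.37, 0.000393). Icam1, a ligand of LFA-1, was 47.4 and 52.3 FPKM in hybrid cells and 19.9 and 27.7 in EPSCs (1.05, 0.00137). Fibroblast marker RNA was higher in the same hybrid cell libraries, and its part in these 3 was not tested. In EPSCs against ESCs, Tnc and Npnt (1.09), the latter a ligand of α8β1, were higher. The fibroblast marker sum in EPSCs was 5.42 times that in ESCs, and the part of such RNA in Tnc and Npnt was not tested. Against NSCs, 4 ligands were higher and 3 lower in hybrid cells, and 4 were higher and 4 lower in EPSCs. On the log2(FPKM + 1) scale, Spp1, osteopontin, had the largest difference of EPSCs from NSCs (5.72, from 9.76 and 8.69 FPKM in NSCs to 511 and 563 in EPSCs), whereas in hybrid cells it was Icam1 (5.65, from a mean of 0.0148 FPKM in NSCs). Fn1, fibronectin, the ligand of α5β1, was 25.9 and 23.9 FPKM in NSCs and 157 to 171 FPKM in the EPSC and hybrid libraries. Of 19 adaptor genes tested, which couple integrins to the cytoskeleton, 2 were higher and 6 lower in hybrid cells than in NSCs, 1 was higher and 6 lower in EPSCs than in NSCs, 2 were lower in EPSCs than in ESCs (Tns1, -1.44, and Parvb, -1.41), and limma called 0 between hybrid cells and EPSCs (11 had an unadjusted p under 0.05). Parva, Ilk, and Lims1, whose products form one complex at integrin tails, were all lower than in NSCs, with log2 fold changes of -3.02, -1.91, and -1.23 in EPSCs and -2.12, -1.78, and -1.94 in hybrid cells. Tns3, a tensin, was higher (1.30 and 1.82).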

How the data were processed

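Poly-A RNA from 8 libraries was prepared with a TruSeq Stranded kit. Per the labels and the study's methods, reads were trimmed, aligned to mm10 with STAR 2.7.9a, and quantified with Cuffnorm of Cufflinks 2.2.1, and the authors deposited FPKM for each gene and library, without pooling. The annotation, the strand setting, and the library normalization are not given in the sources used here. The steps on which low FPKM values lie gave the depth, under an assumed fragment length.

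Groups were compared with limma 3.58.1 (R 4.3.3; lmFit, contrasts, eBayes with trend; two-sided) on log2(FPKM + 1), with 4 groups of 8 libraries in one fit (4 residual and 3.25 prior degrees of freedom), over 13239 genes with a mean of at least 1 FPKM in a group. A call needed a Benjamini-Hochberg adjusted p under 0.05 and over 2-fold. A rule modelled on the study's (ratio of means over 3, higher mean over 3) was applied beside it, with no p; the sources do not say which mean is meant and also use thresholds of 2, so both were tried as alternatives. Replicate numbers are not stated to pair libraries and were not modelled. The limma step was tested on simulated data. One gene whose symbol fits the choice of members is not reported here and is left out of every count and sum over the members. Every other member was accounted for. Members of at least 1 FPKM are given with levels, and of each related list up to 3 called genes with the largest change in a comparison. The members and lists were chosen with earlier results of these data known. Alternatives covered the added constant, the filter, scaling, the replicate block, fits of the compared groups alone, the thresholds, and each library left out in turn. Positions and promoters came from RefSeq GRCm38.p6.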

Additional observations from a re-analysis of the deposited data

How the results depend on the processing

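Of the called log2 fold changes of members, 0 reversed under any alternative, and 5 of 443 values lost their call: Itga5 in EPSCs against NSCs when scaled to a sum of 1000000 (0.996), Itga9 in hybrid cells against NSCs under quantile normalization (-0.902) and without the second hybrid library (-0.805), Itgb3 in the same comparison under quantile normalization (0.936), and Itgal in EPSCs against NSCs without the second EPSC library (0.998). The number of members limma called in hybrid cells against EPSCs was 2 with a pseudocount of 0.1 and 10 with no fold required, in place of 0. With no fold required it was 10 in EPSCs against ESCs and 20 in EPSCs against NSCs. In EPSCs against ESCs it was 5, in place of 3, with a pseudocount of 0.1 or 0.5 and when scaled to a sum of 1000000. By the 3-fold rule, it was 1 in hybrid cells against EPSCs with both thresholds at 2, and, with a mean over 1 in the higher group, 13 in hybrid cells against NSCs and 5 in EPSCs against ESCs. With a mean over 3 across both groups, an alternative chosen after seeing the data, it was 1 in EPSCs against ESCs, in place of 2. The cause was not tested. When each library was left out in turn, limma called 0 to 1 members in hybrid cells against EPSCs, 14 in hybrid cells against NSCs, 3 to 4 in EPSCs against ESCs, and 10 to 12 in EPSCs against NSCs, and the 3-fold rule called 0, 8, 2, and 8 to 10.

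Taking the replicate number as a block left the counts at 0, 14, 3, and 11 members in these comparisons. The deviations of libraries with the same number correlated at 0.28, -0.017, 0.057, and 0.069 over 13239 genes. The highest value was that of hybrid cells against EPSCs, and those of the other comparisons were near 0. What the value of 0.28 reflects was not tested, and the sources do not state that the numbers pair libraries. Members below the limit of 3 fragments could not be ranked among each other at this depth.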
